A study of Mus musculus with 12 samples.

Results

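The expression of 10 listed genes of dendritic cells, Langerhans cells and macrophages was followed in RNA sequencing data from mouse rectum: Cd207, Itgax, Cd209a, Flt3, Csf1r, Aif1, Cd68, Mrc1, Cd163 and Lyz2. They were taken by symbol from the deposited table, where all 10 were present among 27785 genes. The 12 libraries of whole rectum tissue fall into 4 groups by genotype. Lgr5-Apc (n = 4) is Lgr5creER;APC flox, Cdx2-Apc (n = 3) is CDX2creER;APC flox, and Lgr5-Cdx2-Apc (n = 2) carries both drivers with floxed Apc. CreER is a Cre recombinase that works after tamoxifen, Lgr5 marks intestinal stem cells, Cdx2 is a gene of hindgut epithelium, and Apc restrains Wnt signalling. The control samples (n = 3) bear WT in their titles. Their genotype field, however, gives the CDX2creER driver and APC flox followed by WT, and it is not settled which of these alleles they carried. Tamoxifen at 25 mg/kg on 5 days is written in the protocol of every sample, while the separate treatment entry is missing for the controls. The labels give no ages and do not say which samples came from separate animals, so every p-value rests on the spread between samples, which may be technical.

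Dendritic cells take up antigen and carry it to T cells, and Langerhans cells are the antigen-presenting cells of stratified squamous epithelium such as epidermis and the lining of the anal canal. Langerhans cells depend on signals through the receptor Csf1r, for which Il34 from keratinocytes is the main ligand in skin, whereas most gut macrophages are renewed from blood monocytes. Columnar rectal mucosa borders squamous epithelium at the anal canal, so a piece of rectum can hold parts of both. In bulk tissue, fewer cells of a type and less RNA per cell cannot be told apart.

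The sequence ahead of the start site is shown for 4 of the 5 genes that passed the test in at least 1 comparison, so that known myeloid motifs can be compared between genes that were higher in the same libraries. Each run is the 250 bases before the start site that RefSeq gives on GRCm38.p6, read 5′ to 3′ on the gene's own strand. Capitals mark GAGGAA (the purine box bound by ETS factors such as PU.1), TGANTCA (the AP-1 site) or TGTGGT (the Runx site), each searched on both strands. No marked stretches overlap.
Cd207, minus strand, chr6:83677858-83678107: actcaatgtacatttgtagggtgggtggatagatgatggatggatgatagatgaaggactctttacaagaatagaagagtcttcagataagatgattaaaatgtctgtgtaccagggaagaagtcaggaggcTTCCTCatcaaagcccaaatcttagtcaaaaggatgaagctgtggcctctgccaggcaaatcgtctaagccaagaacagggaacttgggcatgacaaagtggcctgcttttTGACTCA
Itgax, plus strand, chr7:128129300-128129549: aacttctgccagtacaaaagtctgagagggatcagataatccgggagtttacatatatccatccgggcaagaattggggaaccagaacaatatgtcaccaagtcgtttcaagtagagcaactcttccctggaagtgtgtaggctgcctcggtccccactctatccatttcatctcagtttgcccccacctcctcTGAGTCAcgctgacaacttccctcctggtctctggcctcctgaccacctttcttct
Cd209a, minus strand, chr8:3748985-3749234: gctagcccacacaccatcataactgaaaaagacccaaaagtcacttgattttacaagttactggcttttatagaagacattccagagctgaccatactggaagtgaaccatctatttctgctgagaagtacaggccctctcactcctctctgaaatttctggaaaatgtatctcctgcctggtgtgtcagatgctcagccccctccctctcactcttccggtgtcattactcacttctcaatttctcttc
Aif1, minus strand, chr17:35176053-35176302: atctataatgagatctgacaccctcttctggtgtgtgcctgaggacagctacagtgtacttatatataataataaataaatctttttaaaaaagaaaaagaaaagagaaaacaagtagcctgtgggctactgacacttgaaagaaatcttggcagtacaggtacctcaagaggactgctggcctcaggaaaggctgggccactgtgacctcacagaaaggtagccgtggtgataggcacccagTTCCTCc
The Cd207 run holds an AP-1 match that starts 7 bases before the start site and a purine box 118 bases before it. The Itgax run holds an AP-1 match at 56 bases, the Aif1 run a purine box at 7 bases, and the Cd209a run none of the 3 motifs. Of the 9 genes with a RefSeq promoter entry (all but Csf1r), 4 hold GAGGAA, 3 hold TGANTCA and 1 holds TGTGGT. Among 32851 RefSeq promoter windows of the same length, these motifs occur in 23.3%, 6.75% and 14.0%. A match is a description of the letters and not a bound site.

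Levels are in FPKM, which corrects fragments for transcript length and library size and so allows comparison between genes. Depth in reads is unknown, and a 0 means only that the gene is listed at 0. Library totals ran from 451297 to 728462 FPKM, with 20522 to 22562 genes above 0. Apc itself was 13.5 to 18.8 FPKM in all 12 libraries, and a value per gene does not show removal of floxed exons. The libraries differed in tissue make-up, read here as the mean log2(FPKM + 1) of marker lists. The squamous epithelium score of 15 genes reached 7.26 and 8.93 in Lgr5-Cdx2-Apc, 9.75 and 8.82 in Lgr5-Apc replicates 2 and 3, 6.67 in control replicate 1 and 0.783 to 4.67 in the other 7 libraries. For skeletal muscle the score was 4.37 and 4.63 in Lgr5-Cdx2-Apc, 4.60 in Lgr5-Apc replicate 2 and at most 1.85 elsewhere. The columnar epithelium score was 6.33 and 3.84 in Lgr5-Cdx2-Apc, 6.35 in Lgr5-Apc replicate 2 and 8.03 to 8.77 elsewhere. The smooth muscle score was 3.11 and 2.44 in Lgr5-Cdx2-Apc and 5.67 to 8.16 elsewhere. Lgr5-Cdx2-Apc therefore differs from the other groups in labelled genotype and in these scores together, and genotype and tissue make-up cannot be told apart for differences that involve it.

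Cd207 and Itgax rose in Lgr5-Cdx2-Apc against each of the other groups, and Cd209a and Aif1 rose against both groups with 1 driver. Csf1r rose against Lgr5-Apc, while Cd68, Mrc1, Cd163 and Lyz2 passed in no comparison of the main fit. Genes were tested with limma on log2(FPKM + 1), and called at a Benjamini-Hochberg adjusted p below 0.05 over 17360 genes. Of the 10 genes, 9 reached the filter of 1 FPKM in at least 2 libraries, and Flt3 did not. Cd209a reached it only through the Lgr5-Cdx2-Apc libraries, so its calls were shaped by that filter. It is 1 of the genes counted below as higher against Lgr5-Apc and against Cdx2-Apc. In all 3 comparisons it is also in the counts of unadjusted p and of libraries without overlap. The counts below are therefore descriptions, and no excess over the shares of all genes is read from them. Among the other 8 tested genes, 2 were higher against control. Against control, 2 of the 9 were higher and 0 lower, where 10.5% of all genes tested were called higher and 8.55% lower, and 4 of the 9 had an unadjusted p below 0.05, as did 36.9% of all genes. Against Lgr5-Apc, 5 were higher and 0 lower, where 5.22% of all genes were called higher and 3.77% lower, and 7 of the 9 had an unadjusted p below 0.05, as did 29.4% of all genes. Against Cdx2-Apc, 4 were higher and 0 lower, where 12.1% of all genes were called higher and 11.7% lower, and 5 of the 9 had an unadjusted p below 0.05, as did 39.3% of all genes. Every Lgr5-Cdx2-Apc library lay above every control library for 5 of the 9 genes (32.1% of all genes), above every Lgr5-Apc library for 6 (18.1% of all genes) and above every Cdx2-Apc library for 5 (33.4% of all genes). A call or a lack of overlap was thus common among all genes, most of all against control and Cdx2-Apc. The 3 comparisons share the same pair of Lgr5-Cdx2-Apc libraries, so they are not independent of each other. The median log2 difference of the 9 genes was 0.92, 1.39 and 0.94 in the 3 comparisons, and over all genes tested it was 0.07, 0.03 and 0.04.

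**Figure D1:**
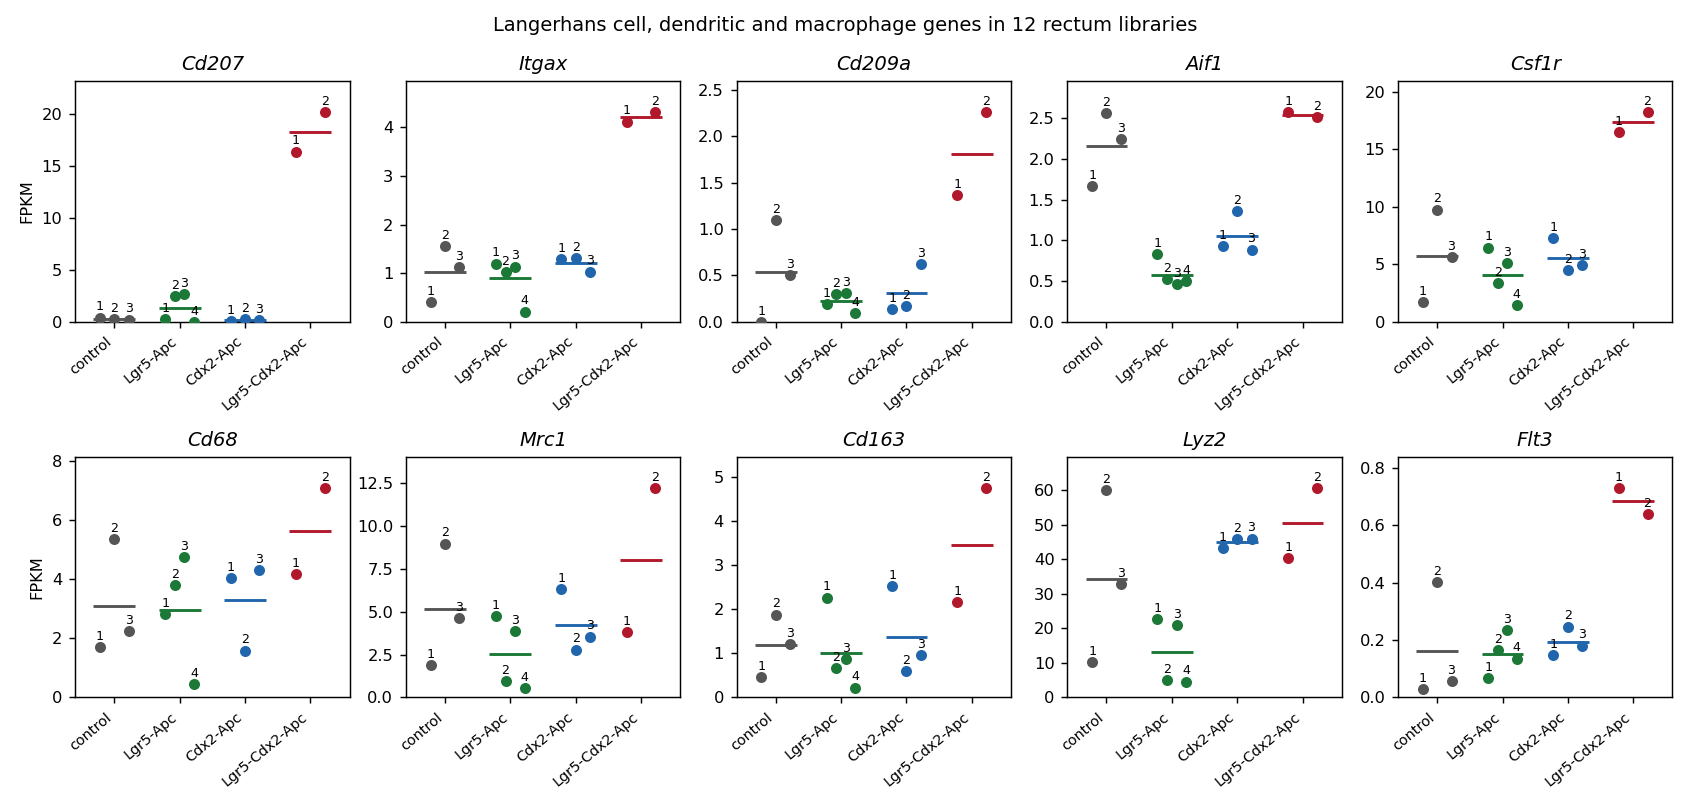
FPKM of the 10 genes (vertical axes, each from 0) in 12 rectum libraries by group, with 1 point per library numbered by replicate and a line at the group mean. Cd207 sits at 16.4 and 20.1 FPKM in Lgr5-Cdx2-Apc and at 2.64 or below in the other 10 libraries. The points of Cd68 and Mrc1 overlap between groups, and those of Lyz2 lie lower in Lgr5-Apc than in Cdx2-Apc and Lgr5-Cdx2-Apc.

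Cd207 encodes langerin, the lectin that defines Langerhans cells and is also made by some dendritic cells. The gene (ENSMUSG00000034783.7) lies on chromosome 6, 83671215 to 83677857, minus strand, in GENCODE M21 on GRCm38. Its level in Lgr5-Cdx2-Apc was 16.4 and 20.1 FPKM. In control replicates 1 to 3 it was 0.389, 0.259 and 0.203 FPKM, and in Cdx2-Apc 0.0652, 0.223 and 0.164 FPKM. Lgr5-Apc was split: 0.239 and 0 FPKM in replicates 1 and 4, and 2.47 and 2.64 FPKM in replicates 2 and 3. Both Lgr5-Cdx2-Apc libraries lay above all others, and the other 3 groups overlapped, although Lgr5-Apc had the second highest mean at 1.34 ± 1.41 FPKM (SD, n = 4). The mean of 18.2 ± 2.66 FPKM (SD, n = 2) was 64.3 times that of the controls, which were all below 0.4 FPKM. On the log2(FPKM + 1) scale, which understates changes of low genes, the difference from control was 3.90 ± 0.51 (SE; 95% interval 2.77 to 5.03; limma adjusted p = 0.00192). It was 3.27 ± 0.48 against Lgr5-Apc (adjusted p = 0.00378, limma) and 4.06 ± 0.51 against Cdx2-Apc (adjusted p = 0.00144, limma).

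The levels of Cd207 stood beside those of squamous epithelium genes within Lgr5-Apc. Replicates 2 and 3, with squamous scores of 9.75 and 8.82, were the 2 libraries of that group above 1 FPKM. Their Cd207 remained below the 16.4 FPKM of Lgr5-Cdx2-Apc replicate 1, whose squamous score was 7.26. The genes of the score did not all order the libraries alike. Krt13 and Krt4 were 1.28 and 1.44 FPKM in Lgr5-Cdx2-Apc replicate 1, and 5071 and 7351 FPKM in Lgr5-Apc replicate 2. Krt5 was 2790 and 2075 FPKM in the same libraries. A lower score is therefore not less of every squamous gene, and the score as a covariate does not hold each of these genes equal. Control replicate 1, with a score of 6.67, had 0.389 FPKM. With the squamous score as a covariate, the difference between Lgr5-Cdx2-Apc and control was 3.16 ± 0.36 (adjusted p = 0.0027, limma). Without Lgr5-Apc replicates 2 and 3 and control replicate 1, a setting chosen after seeing the data, it was 3.96 ± 0.21 (adjusted p = 8.79e-05, limma). The 2 Lgr5-Apc libraries left out had the highest Cd207 outside Lgr5-Cdx2-Apc, and the control left out the highest of its group. Leaving them out narrows the spread of Cd207 by itself, so the smaller SE and p add no support. The call ended without Lgr5-Cdx2-Apc replicate 2 (3.76, adjusted p = 0.0509), and with the columnar score (2.85, adjusted p = 0.292) or the pan-leukocyte score (2.65, adjusted p = 0.24) as a covariate. Without Lgr5-Cdx2-Apc replicate 2 the call against Lgr5-Apc ended as well (3.13, adjusted p = 0.117), and so it did in a fit of those 2 groups alone (3.27, adjusted p = 0.0967).

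**Figure D2:**
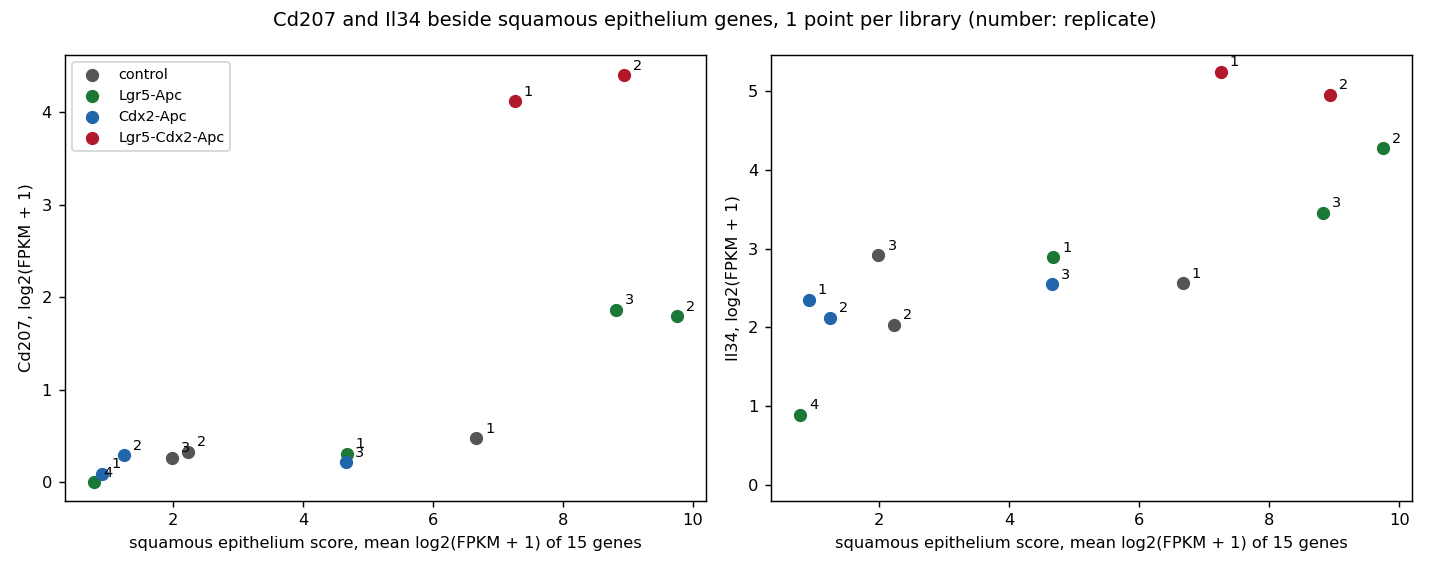
Log2(FPKM + 1) of Cd207 (left) and Il34 (right) against the squamous epithelium score, the mean log2(FPKM + 1) of 15 genes, with 1 point per library numbered by replicate and coloured by group. The Lgr5-Cdx2-Apc libraries have the highest values of both genes at squamous scores of 7.26 and 8.93, while Lgr5-Apc replicates 2 and 3 lie lower at 9.75 and 8.82.

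Itgax encodes CD11c, the integrin chain carried by dendritic cells, Langerhans cells and many gut macrophages (ENSMUSG00000030789.9, chromosome 7, 128129547 to 128150657, plus strand). It was 4.11 and 4.31 FPKM in Lgr5-Cdx2-Apc. The controls had 0.405, 1.55 and 1.12 FPKM, Lgr5-Apc 1.20, 1.02, 1.13 and 0.208 FPKM, and Cdx2-Apc 1.29, 1.31 and 1.03 FPKM. No library of another group reached the Lgr5-Cdx2-Apc values, and the other 3 groups overlapped. The log2 difference from control was 1.41 ± 0.31 (adjusted p = 0.0162, limma), a ratio of means of 4.10. Against Lgr5-Apc it was 1.50 ± 0.29 (adjusted p = 0.0157, limma) and against Cdx2-Apc 1.24 ± 0.31 (adjusted p = 0.0202, limma). Without Lgr5-Cdx2-Apc replicate 1 or 2 the calls of Itgax ended in all 3 comparisons, with adjusted p from 0.0819 to 0.222, and with the pan-leukocyte score as a covariate the difference from control was 0.13. With the squamous score as a covariate the calls of Itgax ended against control (1.32, adjusted p = 0.0529) and Cdx2-Apc (1.13, adjusted p = 0.119), and a pseudocount of 0.1 FPKM ended all 3 (adjusted p from 0.0531 to 0.0834). The squamous covariate also ended the calls of Cd209a (1.05, adjusted p = 0.144) and Aif1 (0.93, adjusted p = 0.0638) against Cdx2-Apc. Against Cdx2-Apc the call of Itgax also ended without Cdx2-Apc replicate 2 (adjusted p = 0.0542) or replicate 3 (adjusted p = 0.0575).

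Cd209a, a C-type lectin of the DC-SIGN family found on monocyte-derived dendritic cells, was a low gene in every group (ENSMUSG00000031494.7, chromosome 8, 3743397 to 3748984, minus strand). Lgr5-Cdx2-Apc had 1.36 and 2.26 FPKM. In control it was 0, 1.10 and 0.501 FPKM, in Lgr5-Apc 0.191, 0.297, 0.311 and 0.0911 FPKM, and in Cdx2-Apc 0.136, 0.170 and 0.626 FPKM. Both Lgr5-Cdx2-Apc libraries lay above the rest, though control replicate 2 came near the lower of them. Outside Lgr5-Cdx2-Apc only that control library reached 1 FPKM, so Cd209a was tested because it is high in the group it is tested for. The log2 difference was 1.19 ± 0.29 against Lgr5-Apc (adjusted p = 0.0354, limma) and 1.10 ± 0.31 against Cdx2-Apc (adjusted p = 0.0294, limma). Against control it was 0.92 ± 0.31 and did not pass (adjusted p = 0.0592, limma), while without control replicate 2 it was 1.18 (adjusted p = 0.0436). Its coding sequence is 66.7% to 73.3% identical to those of the neighbouring family members Cd209b, Cd209c, Cd209d, Cd209e and Cd209f, so how reads were shared among them may touch these low values. The calls for Cd209a also ended without either Lgr5-Cdx2-Apc library, with adjusted p from 0.0755 to 0.358, that against Lgr5-Apc also without control replicate 3, Cdx2-Apc replicate 2 or any of Lgr5-Apc replicates 1, 3 and 4, and that against Cdx2-Apc also without Cdx2-Apc replicate 1 or 2.

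Flt3, the receptor whose ligand Flt3l drives dendritic cell development, stayed below 1 FPKM in all libraries (ENSMUSG00000042817.15, chromosome 5, 147330741 to 147400489, minus strand). It was 0.730 and 0.639 FPKM in Lgr5-Cdx2-Apc. The controls had 0.0281, 0.401 and 0.0576 FPKM, Lgr5-Apc 0.0681, 0.166, 0.235 and 0.136 FPKM, and Cdx2-Apc 0.148, 0.247 and 0.181 FPKM. The Lgr5-Cdx2-Apc libraries were again the highest, with the other groups overlapping. In a fit with no filter on low values, which tested 27785 genes, the log2 difference from control was 0.55 ± 0.12 (adjusted p = 0.0227, limma). An antisense gene, Gm26597, overlaps Flt3, and whether strand was used in counting is not given in the sources used here.

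Csf1r, the receptor for Csf1 and Il34 that macrophages and Langerhans cells need, was the second most abundant of the 10 genes in 9 libraries (ENSMUSG00000024621.16, chromosome 18, 61100598 to 61132149, plus strand). It was 16.5 and 18.2 FPKM in Lgr5-Cdx2-Apc. In control it spread from 1.69 in replicate 1 to 9.74 in replicate 2, with 5.61 FPKM in replicate 3. Lgr5-Apc had 6.45, 3.36, 5.11 and 1.43 FPKM and Cdx2-Apc 7.28, 4.47 and 4.95 FPKM. Every Lgr5-Cdx2-Apc value lay above every other, and the other 3 groups overlapped. The log2 difference passed against Lgr5-Apc, at 1.97 ± 0.54 (adjusted p = 0.0481, limma). It did not pass against control, at 1.67 ± 0.57 (adjusted p = 0.0623, limma), or against Cdx2-Apc, at 1.50 ± 0.57 (adjusted p = 0.0755, limma). The call against Lgr5-Apc rests on a narrow margin: it held in 7 of 26 alternatives and ended without either Lgr5-Cdx2-Apc library, any 1 Cdx2-Apc library, control replicate 3 or any of Lgr5-Apc replicates 1, 3 and 4, while Csf1r passed against control without control replicate 2 (2.12, adjusted p = 0.0499) or Lgr5-Apc replicate 4 (1.67, adjusted p = 0.0365) and against Cdx2-Apc without control replicate 1 (adjusted p = 0.0389) or Lgr5-Apc replicate 4 (adjusted p = 0.0445). Csf1r overlaps Hmgxb3 on the opposite strand, which was 6.09 to 9.63 FPKM in all 12 libraries.

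Aif1 encodes IBA1, a calcium-binding protein of macrophages and microglia (ENSMUSG00000024397.14, chromosome 17, 35170991 to 35176068, minus strand). It was 2.57 and 2.51 FPKM in Lgr5-Cdx2-Apc and 1.67, 2.56 and 2.24 FPKM in control. In Cdx2-Apc it was 0.928, 1.36 and 0.886 FPKM, and in Lgr5-Apc 0.828, 0.523, 0.463 and 0.499 FPKM. The controls overlapped Lgr5-Cdx2-Apc and lay above every Lgr5-Apc and Cdx2-Apc library, and Lgr5-Apc lay below Cdx2-Apc without overlap. The log2 difference of Lgr5-Cdx2-Apc was 1.17 ± 0.19 from Lgr5-Apc (adjusted p = 0.00625, limma), 0.79 ± 0.20 from Cdx2-Apc (adjusted p = 0.021, limma) and 0.18 ± 0.20 from control (95% interval -0.27 to 0.62; adjusted p = 0.544, limma). The calls against both groups with 1 driver ended without either Lgr5-Cdx2-Apc library, with adjusted p from 0.0741 to 0.156, and that against Cdx2-Apc also without Cdx2-Apc replicate 1 (adjusted p = 0.0555) or 3 (adjusted p = 0.0635).

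Of the remaining macrophage genes, Cd68 codes for a lysosomal glycoprotein, Mrc1 for the mannose receptor CD206 and Cd163 for the haemoglobin scavenger receptor. Cd68 (ENSMUSG00000018774.13, chromosome 11, 69664213 to 69666153) was 4.16 and 7.08 FPKM in Lgr5-Cdx2-Apc, 1.70, 5.35 and 2.23 in control, 2.82, 3.80, 4.75 and 0.440 in Lgr5-Apc and 4.04, 1.59 and 4.29 in Cdx2-Apc. Mrc1 (ENSMUSG00000026712.3, chromosome 2, 14229392 to 14332057) was 3.80 and 12.2 FPKM in Lgr5-Cdx2-Apc, 1.91, 8.98 and 4.64 in control, 4.74, 0.951, 3.89 and 0.538 in Lgr5-Apc and 6.30, 2.80 and 3.54 in Cdx2-Apc. Cd163 (ENSMUSG00000008845.9, chromosome 6, 124304656 to 124330527) was 2.17 and 4.75 FPKM in Lgr5-Cdx2-Apc, 0.465, 1.88 and 1.21 in control, 2.27, 0.670, 0.862 and 0.222 in Lgr5-Apc and 2.53, 0.605 and 0.965 in Cdx2-Apc. For each of these genes Lgr5-Cdx2-Apc replicate 2 was the highest library and Lgr5-Apc replicate 4 the lowest, and replicate 1 of Lgr5-Cdx2-Apc fell within the range of each other group for Cd68 and Mrc1. For Cd163 it lay above the controls and within the ranges of Lgr5-Apc and Cdx2-Apc. The log2 differences from control were 0.76 ± 0.59 for Cd68 (95% interval -0.55 to 2.07), 0.54 ± 0.70 for Mrc1 (-1.01 to 2.09) and 1.02 ± 0.48 for Cd163 (-0.047 to 2.09). None passed against control, Lgr5-Apc or Cdx2-Apc (limma adjusted p from 0.117 to 0.596). Without Lgr5-Cdx2-Apc replicate 2, the difference of Mrc1 from control was -0.19.

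Lyz2 encodes lysozyme M of macrophages, monocytes and neutrophils and had the highest FPKM of the 10 genes in all 12 libraries (ENSMUSG00000069516.8, chromosome 10, 117277331 to 117282321, minus strand). It was 40.3 and 60.5 FPKM in Lgr5-Cdx2-Apc and 43.1, 45.8 and 45.9 FPKM in Cdx2-Apc. The controls ran widely, at 10.2, 60.0 and 32.7 FPKM, and Lgr5-Apc had 22.6, 4.97, 21.0 and 4.55 FPKM. Lgr5-Apc lay below both other Apc groups without overlap. The log2 difference between Lgr5-Cdx2-Apc and Lgr5-Apc was 2.14 ± 0.73 and did not pass (adjusted p = 0.0866, limma). The difference from control was 0.83 ± 0.77 (95% interval -0.88 to 2.53; adjusted p = 0.457, limma), and from Cdx2-Apc 0.13 ± 0.77 (95% interval -1.57 to 1.84; adjusted p = 0.914, limma). The Paneth cell lysozyme gene Lyz1 matches Lyz2 at 422 of 444 coding bases, so reads of the pair may be split between them. Lyz1 was 0.0284 to 0.381 of the Lyz2 FPKM in the 12 libraries.

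**Figure D3:**
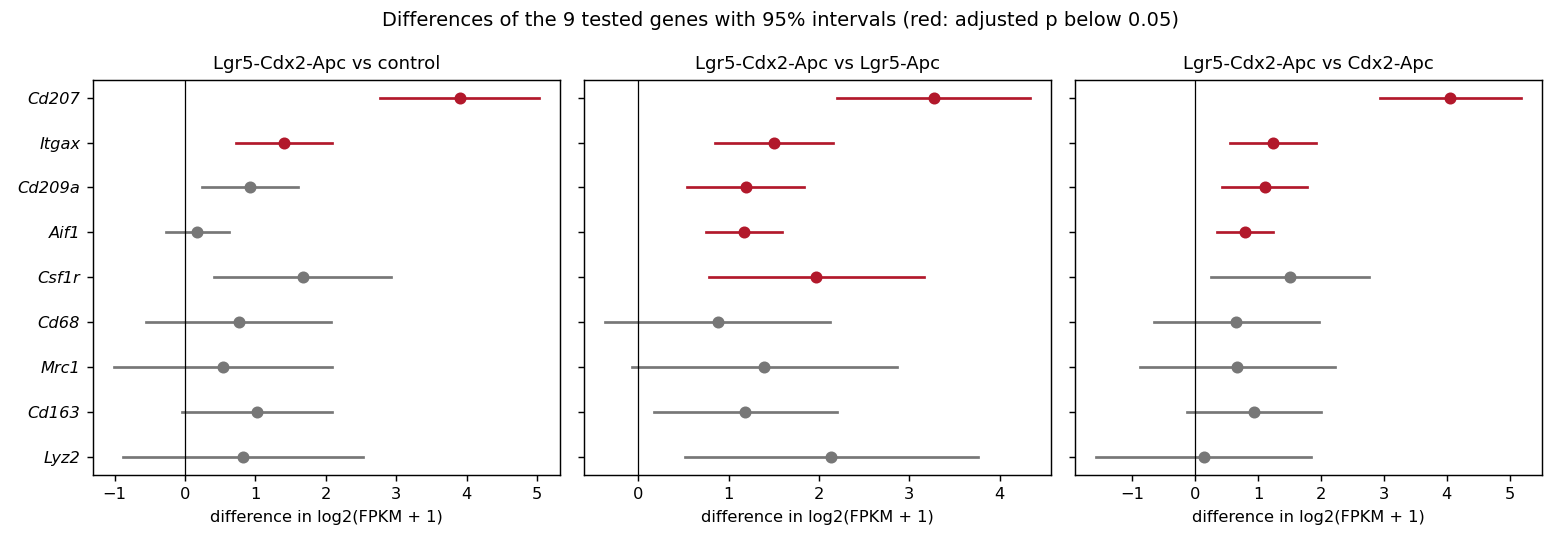
Differences in log2(FPKM + 1) (horizontal axes) of the 9 tested genes between Lgr5-Cdx2-Apc and control, Lgr5-Apc or Cdx2-Apc, as points with 95% intervals from limma, red where the adjusted p was below 0.05. Cd207 has the largest difference in each panel, at 3.90, 3.27 and 4.06, and the intervals of Cd68 and Mrc1 include 0 in all 3 panels.

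In the comparisons that leave out Lgr5-Cdx2-Apc, none of the 9 genes passed. Lgr5-Apc against control called 0 of 9 (limma, 1 at an unadjusted p below 0.05), where 0.0115% of all genes were called in either direction and 10.8% had an unadjusted p below 0.05. Cdx2-Apc against control called 0 of 9 (limma, 1 at an unadjusted p below 0.05), where 0.0403% of all genes were called and 1.64% had an unadjusted p below 0.05. Lgr5-Apc against Cdx2-Apc called 0 of 9 (limma, 2 at an unadjusted p below 0.05), where 0.0346% of all genes were called and 10.4% had an unadjusted p below 0.05. These unadjusted counts come from Aif1 in each comparison and from Lyz2 between Lgr5-Apc and Cdx2-Apc. For Aif1 the log2 difference was -0.99 ± 0.17 in Lgr5-Apc against control (adjusted p = 0.36, limma), -0.61 ± 0.18 in Cdx2-Apc against control (adjusted p = 1, limma) and -0.38 ± 0.17 between Lgr5-Apc and Cdx2-Apc (adjusted p = 0.473, limma). For Lyz2 the difference of Lgr5-Apc from Cdx2-Apc was -2.00 ± 0.64 (adjusted p = 0.373, limma). For Cd207 the differences were 0.63 ± 0.43 in Lgr5-Apc and -0.16 ± 0.45 in Cdx2-Apc, both against the same controls. Aif1 was the 1 gene of the 9 wholly below control in Lgr5-Apc, where 3.96% of all genes were, and in Cdx2-Apc, where 2.7% were. Of the 9, 2 lay wholly lower in Lgr5-Apc than in Cdx2-Apc, where 6.76% of all genes did.

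Levels were also read relative to Csf1r in the same library. The ratio of Cd207 to Csf1r FPKM was 0.992 and 1.11 in Lgr5-Cdx2-Apc, 0.734 and 0.516 in Lgr5-Apc replicates 2 and 3, 0.230 in control replicate 1 and 0 to 0.0499 in the other 7 libraries. For Itgax the ratio stayed between 0.146 and 0.304 in all 12 libraries, and the Lgr5-Cdx2-Apc values of 0.250 and 0.237 lay inside that range. Mrc1 was 0.230 and 0.671 of Csf1r in Lgr5-Cdx2-Apc and 0.828 to 1.13 in control. It was 0.735, 0.283, 0.762 and 0.377 in Lgr5-Apc and 0.865, 0.626 and 0.716 in Cdx2-Apc. The Lyz2 ratio was 2.44 and 3.33 in Lgr5-Cdx2-Apc, 5.84 to 6.16 in control, 5.92 to 10.3 in Cdx2-Apc and 1.48 to 4.10 in Lgr5-Apc. So the Lgr5-Cdx2-Apc libraries had less Mrc1 and Lyz2 per unit of Csf1r than any control library, and more Cd207. Every Lgr5-Apc library was also below every control for both the Mrc1 and the Lyz2 ratio. Cdx2-Apc replicates 2 and 3 were below every control for the Mrc1 ratio. Low Mrc1 and Lyz2 ratios were thus not particular to Lgr5-Cdx2-Apc. The ratios are descriptions and were not tested. Within each library, Cd207 held rank 3 and rank 2 by FPKM among the 10 genes in Lgr5-Cdx2-Apc replicates 1 and 2, rank 4 and rank 5 in Lgr5-Apc replicates 2 and 3, and between rank 8 and rank 10 in the other 8 libraries.

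**Figure D4:**
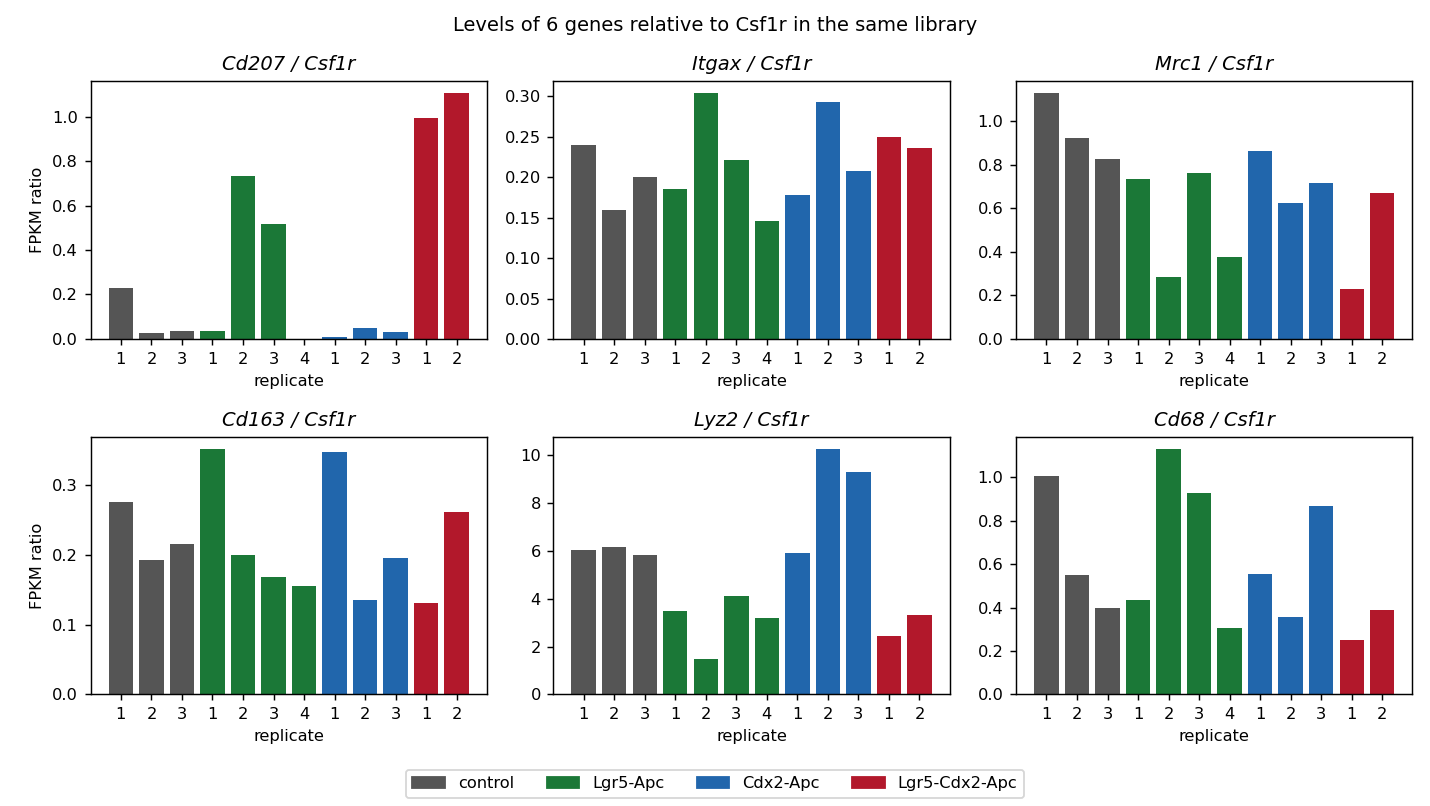
Ratio of the FPKM of Cd207, Itgax, Mrc1, Cd163, Lyz2 and Cd68 to that of Csf1r in the same library (vertical axes, from 0), with 1 bar per library numbered by replicate and coloured by group. Cd207 per Csf1r is 0.992 and 1.11 in Lgr5-Cdx2-Apc, and Itgax per Csf1r stays between 0.146 and 0.304 throughout.

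Other genes of the same cells were read from lists written with earlier results of these data known. In the list of Langerhans cell and epidermal niche genes, 3 of 11 rose and 2 fell in Lgr5-Cdx2-Apc against control, where 10.5% of all genes rose and 8.55% fell, and the median log2 difference was -0.10, beside 0.07 over all genes tested. Runx3, a transcription factor that Langerhans cells need and T cells also use, was 5.04 and 4.05 FPKM in Lgr5-Cdx2-Apc and 0.0822 to 0.815 FPKM in the other 10 libraries. It is 1 of the 3 that rose (log2 difference from control 2.10 ± 0.22), and it entered the test only through the 2 Lgr5-Cdx2-Apc libraries. Without Runx3, 2 of 10 genes of the list rose. Il34 was 37.0 and 30.0 FPKM in Lgr5-Cdx2-Apc, 4.90, 3.10 and 6.57 in control, 6.44, 18.4, 9.99 and 0.858 in Lgr5-Apc and 4.11, 3.37 and 4.85 in Cdx2-Apc. Its highest values outside Lgr5-Cdx2-Apc were in Lgr5-Apc replicates 2 and 3, the libraries with squamous scores of 9.75 and 8.82. The log2 difference of Il34 from control was 2.60 ± 0.75 (adjusted p = 0.0378, limma), and with the squamous score as a covariate it was 1.53 (adjusted p = 0.11). That call for Il34 ended without any 1 of 8 libraries (the 3 controls, the 3 Cdx2-Apc libraries and either Lgr5-Cdx2-Apc library), with adjusted p from 0.0536 to 0.179. Tgfb1, which Langerhans cells need to stay in the epidermis, rose by 0.96 ± 0.26 (adjusted p = 0.0319, limma). Epcam, made by Langerhans cells and far more by columnar epithelium, fell by 2.35 ± 0.61 on the log2 scale (adjusted p = 0.027, limma), and Cdh1, the epithelial cadherin, named after its values were seen, fell by 0.94 ± 0.28 (adjusted p = 0.0418, limma). Ly75 and Cd24a of this list, also named after their values were seen, lay below every control but did not pass. Ly75 was 3.86 and 3.33 FPKM in Lgr5-Cdx2-Apc and 5.82 to 9.33 in control. Cd24a was 69.9 and 111 FPKM against 125 to 140 in control.

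Of 20 genes of conventional dendritic cells, 8 were below the filter and 5 reached it only through the Lgr5-Cdx2-Apc libraries. Of the other 7, 2 rose against control and 1 fell, where 10.5% and 8.55% of all genes did. The 2 that rose were Clec10a and Sirpa, named after their values were seen. Clec10a was 5.27 and 10.2 FPKM in Lgr5-Cdx2-Apc and at most 2.11 FPKM elsewhere. Sirpa was 17.0 and 18.4 FPKM against at most 8.69 FPKM elsewhere. The 4 genes with the smallest p are among the 5 that entered only through Lgr5-Cdx2-Apc, so they are given by their levels, with no p. Cd209d, a lectin of the same family as Cd209a, was 2.74 and 4.08 FPKM in Lgr5-Cdx2-Apc and 0 to 0.410 FPKM elsewhere (log2 difference from control 1.92 ± 0.23). Itgae, the CD103 integrin chain of mucosal dendritic cells and of T cells in epithelium, was 3.42 and 4.39 FPKM against 0.549 to 0.999 elsewhere. Irf4, a factor of type 2 dendritic cells and of activated lymphocytes, was 4.23 and 3.21 FPKM against 0.0563 to 0.774 elsewhere, and Cd209b 1.01 and 1.74 FPKM against 0 to 0.250. Dpp4, an enzyme of the enterocyte surface also found on some dendritic cells and named after its values were seen, fell by 1.01 ± 0.29 (adjusted p = 0.0364, limma). The markers Xcr1 and Clec9a of type 1 dendritic cells were at most 0.195 and 0.415 FPKM in all 12 libraries and were not tested. Of the list of plasmacytoid dendritic cells, 0 of 4 tested genes (Bst2, Tcf4, Klk1 and Ly6d) passed against control (limma, 1 at an unadjusted p below 0.05). Siglech and Pacsin1 were below the filter. Klk1 was 19.6 to 956 FPKM over the 12 libraries, and Ly6d was 1089 FPKM in Lgr5-Apc replicate 2, where the squamous score was 9.75. The count is therefore not a reading of plasmacytoid dendritic cells.

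Among monocyte and macrophage genes other than the 10, 3 of 24 tested rose against control and 2 fell, shares near the 10.5% and 8.55% over all genes, and the median log2 difference was 0.34. Itgam, the CD11b integrin chain, rose by 1.31 ± 0.25 (adjusted p = 0.0104, limma), and Hpgds, a prostaglandin synthase, by 1.16 ± 0.30 (adjusted p = 0.0281, limma). Ctss, a cathepsin of antigen-presenting cells, fell by 2.17 ± 0.59 (adjusted p = 0.0322, limma), and it was low, at 33.4 FPKM, in Lgr5-Apc replicate 2 as well, where the columnar score was low too. Cd14, the endotoxin co-receptor, named after its values were seen, fell by 1.31 ± 0.38 (adjusted p = 0.0385, limma). The complement genes C1qa, C1qb and C1qc, characteristic of resident gut macrophages, differed from control by 0.13, 0.30 and 0.12 with adjusted p of 0.884, 0.781 and 0.922 (limma). Several of these calls depend on single libraries. Those of Hpgds, Ctss, Tgfb1 and Epcam ended without either Lgr5-Cdx2-Apc library or without control replicate 2 or 3. That of Tgfb1 also ended without Cdx2-Apc replicate 3, and that of Itgam without Lgr5-Cdx2-Apc replicate 2. Clec10a, Sirpa, Dpp4, Cdh1 and Cd14 were not followed in the alternative fits. Whether their calls depend on single libraries was therefore not tested.

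Of 6 tested growth factors and receptors of these cells, Il34 and Csf2rb, the shared chain of the receptors for GM-CSF, IL-3 and IL-5, were higher than in control. Without Csf2rb, whose entry was set by the filter, 1 of 5 was higher, where 10.5% of all genes were. Csf2rb was 3.73 and 3.66 FPKM in Lgr5-Cdx2-Apc and 0.233 to 1.11 FPKM elsewhere (log2 difference 1.56 ± 0.23), reached the filter only through Lgr5-Cdx2-Apc, and lost its call without Lgr5-Cdx2-Apc replicate 2 (adjusted p = 0.0698). Csf1, the other ligand of Csf1r, differed from control by 0.72 ± 0.31 (adjusted p = 0.119, limma). The Flt3 ligand gene Flt3l differed by 0.78 ± 0.38 (adjusted p = 0.158, limma).

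The pan-leukocyte and myeloid score of 10 genes was 3.68 and 3.77 in Lgr5-Cdx2-Apc and 1.29 to 2.54 in the other libraries. Of its genes 5 of 10 rose against control, where 10.5% of all genes did, among them Ptprc, the leukocyte antigen CD45, by 1.90. The calls of Ptprc, Spi1, Itgb2 and Coro1a in this list ended without either Lgr5-Cdx2-Apc library (adjusted p from 0.0539 to 0.151), and those of Itgb2 and Coro1a also without control replicate 3. The T and NK cell score was 1.64 and 1.88 in Lgr5-Cdx2-Apc and 0.0837 to 0.484 elsewhere, with Cd3e 3.17 and Trdc 2.28 above control on the log2 scale. All 6 tested genes of that list reached the filter only through Lgr5-Cdx2-Apc, so their number called is set by the filter and is not counted here. None of 4 tested B and plasma cell genes passed (limma, 1 at an unadjusted p below 0.05). Of 4 neutrophil genes tested, Ly6g fell and 0 rose against control (limma, 4 at an unadjusted p below 0.05), and 3 lay wholly above control. Ly6g was 102 to 169 FPKM in control, where Retnlg, Camp, Ngp and Mmp8 of the same list were at most 0.217 FPKM and were not tested. The fall of Ly6g is therefore not read as fewer neutrophils, and which cells gave its signal was not tested. S100a8 was 13.8 and 66.4 FPKM in Lgr5-Cdx2-Apc, 31.9 and 21.7 in Lgr5-Apc replicates 2 and 3 and 0 to 1.90 in the other 8 libraries, and S100a8 and S100a9, which keratinocytes also make, were called higher against Cdx2-Apc. With the pan-leukocyte score as a covariate, none of the 10 genes passed in any Lgr5-Cdx2-Apc comparison, and 0.0115% of all genes were called against control. With the columnar score none passed either, and 0.369% of all genes were called. Both scores separate Lgr5-Cdx2-Apc from nearly all other libraries, so these fits cannot tell group and score apart.

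**Figure D5:**
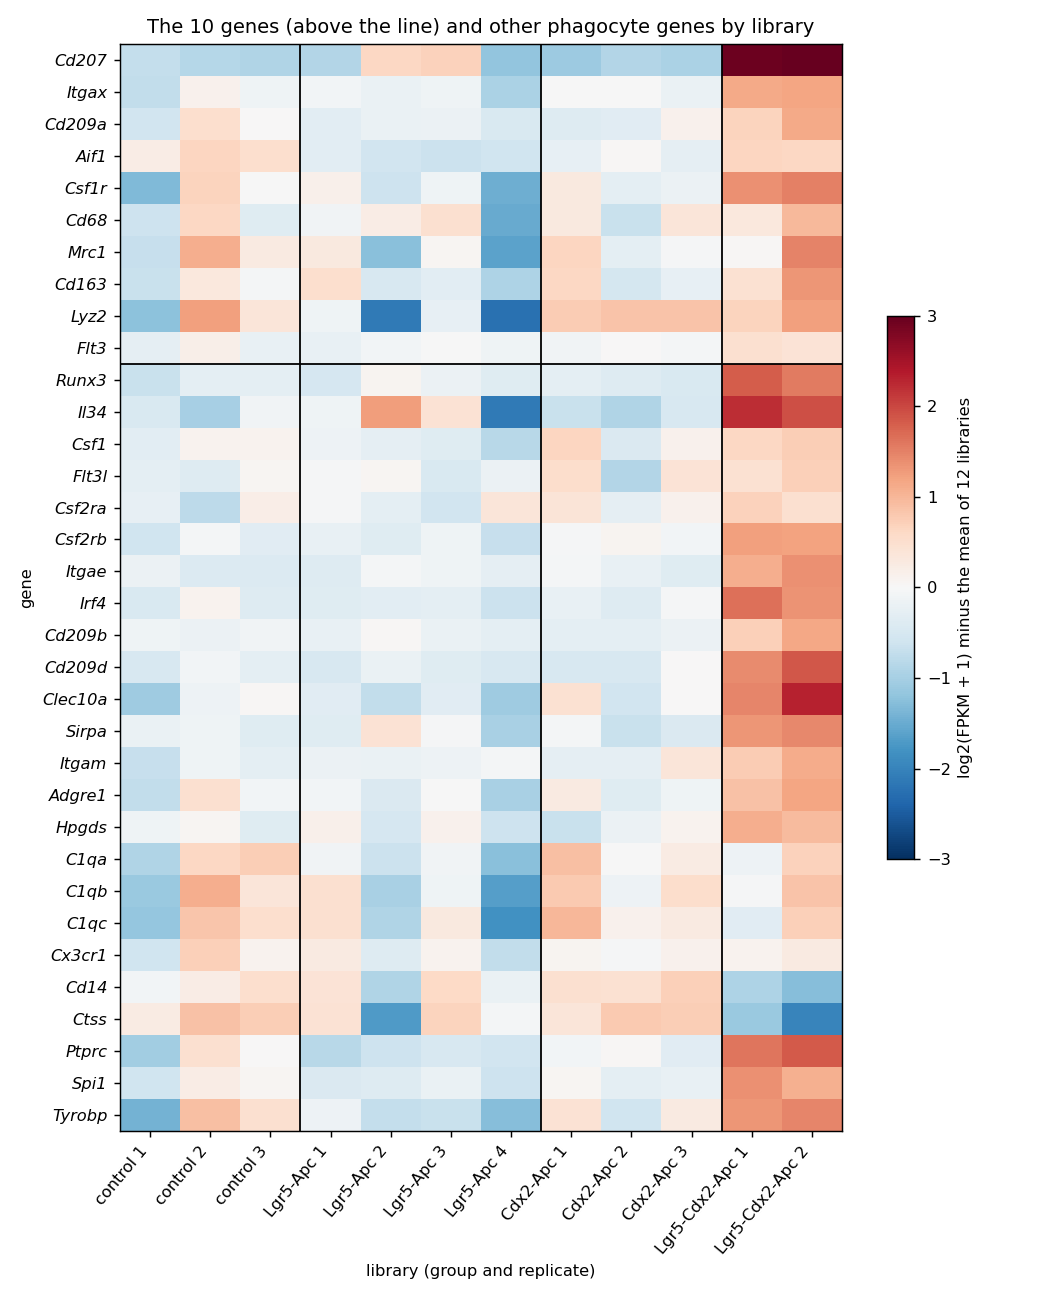
Log2(FPKM + 1) minus the mean of the 12 libraries (colour, from -3 to 3) for the 10 genes above the horizontal line and 24 other phagocyte, growth factor and leukocyte genes below it, with 1 column per library. Cd207, Runx3, Il34 and Cd209d are highest in the Lgr5-Cdx2-Apc columns, and Ctss and Cd14 are low there.

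Profiles closest to each gene were found by the root mean square difference between log2(FPKM + 1) profiles centred on their means over 12 libraries, among genes with a group mean of at least 5 FPKM. Cd207 lay closest to Gm9944 (0.26), Npl (0.33) and Ggct (0.33). Npl was 26.6 and 40.5 FPKM in Lgr5-Cdx2-Apc, 5.34 and 3.09 in Lgr5-Apc replicates 2 and 3 and at most 0.965 elsewhere. It was thus highest in the same libraries as Cd207, although Lgr5-Apc replicates 2 and 3 stood in the opposite order for Cd207. Itgax lay closest to Hmha1 (0.24), Ets1 (0.24) and Vsir (0.26), and Cd209a to Ets1 (0.23), Soat1 (0.28) and Osgin2 (0.29). The closest to Csf1r were Laptm5 (0.24), Tyrobp (0.29) and F13a1 (0.30). Mrc1 lay closest to Stab1 (0.28), C1qb (0.31) and Ctsk (0.34), and Cd163 to Zeb2 (0.24), Dab2 (0.25) and Ctsk (0.27). Lyz2 was farther from its nearest profiles, Pf4 (0.51), C1qb (0.57) and Mrc1 (0.60). Cd68 lay nearest to Gm2a (0.30), Sparc (0.31) and Vim (0.34), Aif1 to Taf7 (0.29), Inpp4b (0.30) and Pkia (0.30), and Flt3 to Spidr (0.14), Frmd4b (0.15) and Mettl8 (0.15). Genes that vary little, such as Flt3, lie close to many profiles, so these distances are read within a gene and not between genes.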

How the data were processed

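The authors deposited 1 table of gene values for 12 mouse rectum libraries. Per the submitters' processing notes it was made with STAR, Cufflinks and Cuffdiff on mm10, with versions not given. The deposited values were read as FPKM from the named tools and the values themselves, since the header names no unit. RNA was extracted with an RNeasy Plus kit and DNase and made into directional libraries, per the labels' protocols. The annotation, and any rescaling between libraries, is not given in the sources used here, and depth is unknown, so no counting interval was computed.

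Of 27831 lines, 25 bore spreadsheet date names and 46 symbols stood on 94 lines. Of repeats, only the highest by mean was kept, leaving 27785 genes (Itgam and Flt3l are such symbols). The 17360 genes that reached 1 FPKM in 2 or more libraries were fitted as log2(FPKM + 1) with limma 3.58.1 in R 4.3.3, with 1 term per group, moderation along the intensity trend, 6 contrasts and two-sided Benjamini-Hochberg adjusted p below 0.05. SE are limma's moderated errors. The procedure was tested on simulated data. Positions are from GENCODE M21 on GRCm38, promoters from RefSeq on GRCm38.p6.

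The members and lists were chosen with earlier results of these data known. Named companion genes were the up to 4 smallest p per list against control, plus ligands, receptors and near copies of the 10 genes, and nearest profiles were the 3 closest. Of the genes this rule took, 1 has no values reported here. Some more companion genes were named after their values were seen. Replicate numbers were not used to pair the libraries, and whether they mark a pairing is not settled. Alternatives were other pseudocounts, filters and scalings, fits of 2 groups alone, quality weights, robust moderation, a replicate block, 3 score covariates, and leaving out libraries.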

Additional observations from a re-analysis of the deposited data

Results flagged for a closer look

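Outlying libraries were looked for in Lgr5-Apc, the group with 4 libraries, over 35 gene profiles by Dixon's ratio at the 95% level. Of these, 3 profiles had a library far from the other 3, and chance gives about 1 in 20 such groups. Aif1 was 0.828 FPKM in replicate 1 and 0.463 to 0.523 FPKM in the other 3 libraries. Epcam was 154 FPKM in replicate 2 and 572 to 637 FPKM in the other 3. Coro1a, a cytoskeletal gene of leukocytes, was 3.96 FPKM in replicate 3 and 2.14 to 2.32 FPKM in the others.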

How the results depend on the processing

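Of 690 values recomputed for the 9 genes in the Lgr5-Cdx2-Apc comparisons, 569 kept their direction and their side of the threshold, 80 lost the call, 15 gained it and 26 turned sign. For Cd207, Aif1 and Lyz2 in the other comparisons 226 of 229 kept both, and for other named genes 501 of 597. The number of the 10 genes called was 2, 5 and 4 against control, Lgr5-Apc and Cdx2-Apc. It became 1, 2 and 2 with a pseudocount of 0.1 FPKM, 4 against control with 5 FPKM, 1, 1 and 1 with a filter of 5 FPKM (where few of the genes were tested), 3 and 2 against Lgr5-Apc and Cdx2-Apc with quantile scaling, 4 against control with quality weights, 0 against Lgr5-Apc in a fit of the 2 groups alone, 1 and 1 against control and Cdx2-Apc with the squamous score, and 0 in all 3 with the columnar or the pan-leukocyte score. Leaving out 1 library gave 0 to 4, 0 to 5 and 1 to 5. Smaller moves of the count are not listed above. With quality weights, Csf1r (1.57, adjusted p = 0.0112, limma) and Cd163 (1.05, adjusted p = 0.0497, limma) passed against Cdx2-Apc. Csf1r also passed against Cdx2-Apc in a fit of those 2 groups alone (adjusted p = 0.00533, limma). Lyz2 passed against Lgr5-Apc in the setting chosen after seeing the data (2.14, adjusted p = 0.0344, limma). In the comparisons that leave out Lgr5-Cdx2-Apc the count was 0 in every alternative run.

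The 15 pairs of libraries with the same replicate number had a median correlation of deviations of -0.02 against 0.0051 for other pairs, 5 of the 15 were over 0.1, and 6 of 12 libraries correlated best with their own number. These values do not settle whether the numbers mark a pairing, and the numbers were not used as one in the main fit. The replicate block gave 2, 3 and 4 genes called in the 3 comparisons.

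Signs turned mainly with the pan-leukocyte score as a covariate. Against control, the differences were then -0.15 for Cd209a, -0.086 for Aif1, -0.84 for Csf1r, -1.72 for Cd68, -1.84 for Mrc1, -0.34 for Cd163 and -2.02 for Lyz2, and -0.20 for Csf1. Against Lgr5-Apc they were -0.056 for Cd209a, -0.93 for Csf1r, -1.99 for Cd68, -1.35 for Mrc1, -0.39 for Cd163 and -1.14 for Lyz2. Against Cdx2-Apc they were -0.021 for Itgax, -0.97 for Csf1r, -1.79 for Cd68, -1.68 for Mrc1, -0.41 for Cd163 and -2.67 for Lyz2. None of these passed the test, and the cause was not tested. With the columnar score Cd68 was -0.18 against control and -0.38 against Cdx2-Apc, and Epcam 0.10 against control. With the squamous score Cd68 was -0.11 against Cdx2-Apc, and Cd207 was 0.067 between Cdx2-Apc and control. With quantile scaling Aif1 was -0.049 against control. Leaving out 1 library gave -0.19 to 1.27 for Mrc1 against control, -0.063 to 1.40 for Mrc1 against Cdx2-Apc and -0.15 to 0.42 for Lyz2 against Cdx2-Apc, each lowest without Lgr5-Cdx2-Apc replicate 2. Without Lgr5-Apc replicates 2 and 3 and control replicate 1, Cd207 was -0.15 between Lgr5-Apc and control and -0.046 between Lgr5-Apc and Cdx2-Apc.

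Cd207 passed in 23 of 26, 22 of 26 and 24 of 26 alternatives in the 3 comparisons, with limma adjusted p from 8.79e-05 to 0.292 against control. The lowest of these is from the setting chosen after seeing the data, which left out libraries with high Cd207 for their group. Where a fit leaves Lgr5-Cdx2-Apc with 1 library, that library is assumed to vary like the other groups. Unknown depth limits what low values show, for Cd209a, Flt3 and Cd207 outside Lgr5-Cdx2-Apc most of all.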
